A study of Mus musculus with 8 samples.

Results

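Hypoxic non-cycling melanoma cells are the B16F10 tumour cells in which a set of low-oxygen genes was high while a set of mitotic genes was low. They were picked from single-cell libraries by measured expression. A melanoma cell was a barcode with 200 to 5000 genes, at most 7.5% of its UMIs (unique molecular identifiers, counted molecules) from mitochondrial genes, at least 4000 UMIs, and at least 0.3% of its UMIs from the pigment genes Mlana, Pmel, Dct, Tyr and Tyrp1. Each of these cells received a hypoxia score H, the mean of ln(1 + count per 10000) over Car9, Bnip3, Ndrg1, Egln1 and Hilpda, and a mitotic score G, the same mean over Ube2c, Cenpf, Prc1, Top2a and Plk1. Members had an H in the top 10% of the pooled melanoma cells and a G at or below the median. This gave 1574 members among 22783 melanoma cells and 41925 deposited barcodes, that is 6.91% of the melanoma cells.

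The study profiled 8 subcutaneous tumours of B16F10, a mouse melanoma line, each grown to 300 mm3 and each giving 1 droplet library. The 4 Atf4wt/wt hosts and the 4 Atf4D/D hosts all carried the Rosa26::CreERT2 transgene and had all received tamoxifen, which in hosts with floxed Atf4 deletes the gene in the tissues of the animal. The hosts were on a C57BL/6 background, were 12 weeks old by their labels and were of both sexes, 2 males and 2 females among the Atf4wt/wt and 3 males and 1 female among the Atf4D/D mice. The tumour cells were injected and kept their own Atf4, deletion in the host is driven in all cell types and is not complete, and each genotype was studied with a single line. Library totals ranged from 37283598 to 74942137 UMIs, and the summed members of a tumour held between 412756 and 3451693 UMIs.

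Cells short of oxygen keep hypoxia-inducible factors (HIFs). With oxygen present, prolyl hydroxylases such as EGLN1 mark the HIF alpha subunit, the VHL protein binds it and it is degraded. Without oxygen the alpha subunit joins ARNT, binds a short core sequence near its target genes and raises glucose uptake, glycolysis, pH control, collagen modification and vessel-forming signals. Proliferation commonly slows in such cells. Atf4, the gene deleted in the hosts, encodes the main transcription factor of the integrated stress response.

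The core that HIF binds reads ACGTG or GCGTG on one strand (CACGT or CACGC on the other), and it is shown here in the upstream sequence of genes that marked the members. The stretches below are 30 bases each, 5′ to 3′ on the strand of the gene, taken from RefSeq windows of GRCm38.p6 at the match nearest to the RefSeq start, with the core in capitals. The first 4 belong to genes used to choose the cells, and the rest to genes that were among the 15 highest outside the rule.
Car9, chr4:43506996-43507025, plus strand: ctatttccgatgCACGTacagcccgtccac
Bnip3, chr7:138909524-138909553, minus strand: ggctccgccgccGCGTGcgtcccgccccgc
Egln1, chr8:124949305-124949334, minus strand: gggccgtggtgtACGTGcagcgcgcgcgga
Hilpda, chr6:29272596-29272625, plus strand: cgagctcgtgcaggttcggtacGCGTGcgc
Pgf, chr12:85177420-85177449, minus strand: gccctgcggggtCACGCgcactcaggtctc
Ero1l (Ero1a in RefSeq), chr14:45318618-45318647, minus strand: cgcgcgccgctgCACGTccgcaggggaggc
Ankrd37, chr8:45999851-45999880, minus strand: ggctgcacatgtcagtgtttgggtACGTGa
Slc2a1, chr4:119108697-119108726, plus strand: gtcccgccccggACGTGctccccaggcccc
P4ha2, chr11:54100843-54100872, plus strand: catACGTGcagcGCGTGgcggctcgggcct
Sap30, chr8:57487946-57487975, minus strand: ccgctggtcccgCACGTaatcagaacagag

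Of these stretches, those of Bnip3, Ero1l, P4ha2 and Sap30 overlapped no GENCODE M21 exon, while the others overlapped an annotated exon. Ndrg1 is named only. The core was searched in the 250 bases before each RefSeq start, on both strands, with overlapping matches allowed. It was found upstream of 120 of 151 genes (79.5%) that were higher in the members of all 8 tumours, outside the rule, and had a window, and upstream of 3033 of 4530 (67.0%) of all the genes compared that had one. Over all 32851 RefSeq windows searched the share was 38.6%. Windows on chromosome 18 were left out of the search and of these counts. The core is short and common, and a match is a description of the letters only. Some genes have more than 1 RefSeq start: the stretches of Hilpda and Pgf come from 1 of 2 windows each, the second for Hilpda and the first for Pgf, and the other window of each held no match. Among the 15 highest genes with a window, Gys1, which encodes glycogen synthase, and Aire had no match in any window. Espn, Selenbp1, Higd1a and Adm, also among the 15, had a match, and their stretches are not shown. Pkp2, Cxxc5 and Kbtbd11 had no window.

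The values that picked the cells are given first, without a test. The lowest H of a member was 1.407 and the highest H left outside, at a G within the limit, was 1.406. In all, 383 members (24.3%) lay within 0.1 of the H limit, and 446 cells on the other side of it did. Of the 2279 cells in the top 10% of H, 69.1% had a G at or below the median, against 50.01% of all melanoma cells. No UMI of any of the 5 mitotic genes was found in 1028 members (65.3%). The share was 29.3% in all melanoma cells, and the limit on G by itself raises it in members. Members were set beside 4757 comparison cells from the same tumours, with both H and G at or below their medians.

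Car9, a membrane carbonic anhydrase that exports acid, was at 529 to 673 CPM (UMIs of the gene scaled by all UMIs of the sum) in the summed members of the 8 tumours (median 581) and at 14.8 to 27.9 CPM in the comparison cells (median 21.9). Bnip3, a mitophagy receptor, was at 812 to 950 CPM in members (median 913) and 28.4 to 59.7 CPM in comparison cells (median 49.7). Ndrg1, a stress-induced gene and also a target of the integrated stress response, was at 209 to 333 CPM (median 273) against 11.0 to 18.7 CPM (median 14.04). No tumour's comparison cells came near the lowest value of the members. Egln1, the oxygen sensor, reached 390 to 603 CPM against 22.7 to 57.1 CPM, and Hilpda, a lipid droplet protein, 290 to 540 CPM against 23.2 to 41.1 CPM. Part of these gaps is made by picking cells on the same counts. When each UMI was assigned at random to 1 of 2 sets, with the cells picked on one set and measured on the other, the median log2 ratio over 8 tumours was 3.42 for Car9 (3.29 to 4.54), 3.29 for Bnip3, 3.24 for Ndrg1, 2.66 for Egln1 and 2.87 for Hilpda.

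Melanocytic genes outside the rule were measured in both classes, although the median of 19 such genes was lower in members (log2 ratio -0.43). Sox10, a regulator of the melanocyte lineage, had a mean of 96.6 CPM in members and 128 CPM in comparison cells, and Gpnmb, a melanosome protein, 1864 and 1765 CPM. Markers of other cell types were scarce. The 10 T and NK cell markers gave 1 UMI in all members together, with 9 of them at 0, which allows up to 0.198 CPM for each such gene, and the 6 erythroid markers gave 2 UMIs. The 10 endothelial markers summed to a median of 25.6 CPM in members and 32.9 CPM in comparison cells, nearly all of it Egfl7, with Cdh5, Kdr, Emcn, Tie1 and Cldn5 at 0. The 10 macrophage markers summed to 18.7 to 108 CPM (median 22.1), led by Cd68, with the highest sum in Atf4D/D tumour 2 and Adgre1 at 0. The 10 fibroblast markers summed to 6.78 to 154 CPM (median 19.95), led by Col3a1, with the highest sum in Atf4D/D tumour 1 and none at 0. Barcodes with markers of another cell type made up 4.32% of members and 3.85% of comparison cells, and the counts below were repeated without them.

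The median depth was 9066.5 UMIs for members and 9282 for comparison cells, the mitochondrial share 5.28% and 5.32%, and the number of genes after thinning each cell to 4000 UMIs 1679 and 1763. Members were shallower than comparison cells in 6 of the 8 tumours, with medians of 9273 against 11092 UMIs in Atf4D/D tumour 3, 8132 against 9369.5 in tumour 2 and 8926.5 against 10042.5 in tumour 1, and deeper in Atf4wt/wt tumours 1 and 3. Between libraries, 199 of 41725 barcode sequences were found more than once, 20 of them among members.

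The share of melanoma cells that were members differed several-fold between tumours of one genotype. In Atf4wt/wt hosts it was 4.21% in tumour 1 (95% Wilson interval 3.67 to 4.82), 10.0% in tumour 2 (8.94 to 11.3), 5.01% in tumour 3 (4.14 to 6.04) and 2.13% in tumour 4 (1.63 to 2.78). In Atf4D/D hosts it was 11.0% (9.77 to 12.3), 4.96% (4.21 to 5.84), 6.88% (6.06 to 7.81) and 12.9% (11.6 to 14.2) in tumours 1 to 4. The genotypes overlapped, with Atf4wt/wt tumour 2 above 2 of the Atf4D/D tumours. The mean was 5.35% ± 3.35 (SD, n = 4) in Atf4wt/wt and 8.91% ± 3.63 (SD, n = 4) in Atf4D/D hosts. The difference of 3.57 percentage points did not pass (p = 0.2, two-sided exact permutation test, in which 70 assignments of tumours allow a smallest p of 0.0286). Without Atf4D/D tumour 4 the difference was 2.25 percentage points (p = 0.4, exact permutation test). The intervals cover counting error only, and the spread between tumours of a genotype was wider than them. Thinned to 4000 UMIs before scoring, the shares ran from 2.66% to 10.8% in Atf4wt/wt and from 5.51% to 14.1% in Atf4D/D tumours. The tumours were collected at one size, and how the cells were spread within them was not recorded.

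**Figure D1:**
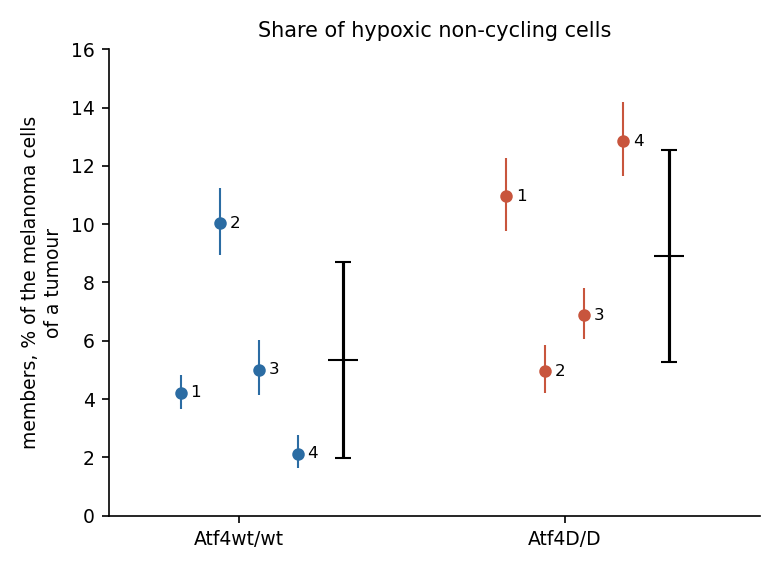
Percent of the melanoma cells of each tumour that were hypoxic non-cycling cells, by host genotype. Numbers are tumours, thin lines are 95% Wilson intervals, and the black bars are the mean ± SD over 4 tumours (5.35% ± 3.35 and 8.91% ± 3.63), which overlap.

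Compared with the comparison cells of the same tumour, 187 of 5643 genes (3.31%) were at least 1.5-fold higher in the members of every one of the 8 tumours, and 139 (2.46%) were at least 1.5-fold lower. The 187 include the 5 hypoxia genes of the rule. Ratios are of CPM + 1, which understates the change of low genes, for genes with a mean of at least 20 CPM over the 16 sums. The cells were chosen by expression, so these counts describe the class and no p belongs to them. The median log2 ratio of all genes was -0.13 and became -0.01 after TMM scaling, under which 235 genes were higher and 79 lower. A gene can reach the minimum through the class where it is high. Where the calls of a list differ, counts are therefore also given for genes that reached the minimum in the other class alone. Of the genes at 20 CPM or more in members alone 98 (1.79%) were lower.

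Of 27 glycolysis genes found in the data, 19 had enough counts, and 16 of them were higher in all 8 tumours while none was lower (median log2 ratio 1.23). Slc2a1, the glucose transporter GLUT1, was at 207 to 295 CPM in members (median 249) and at 26.1 to 37.2 CPM in comparison cells (median 29.7), a median 7.87-fold difference. Hk2, which phosphorylates glucose, was at 299 to 429 CPM against 66.1 to 123 CPM, and Pfkp, a phosphofructokinase that commits sugar to the pathway, at 421 to 475 CPM against 109 to 141 CPM. The members of the lowest tumour lay above the comparison cells of the highest for all 3 genes. Pfkl, the liver-type phosphofructokinase, had a median log2 ratio of 1.55. Pdk1, a kinase that keeps pyruvate out of the mitochondrion, was at 65.4 to 98.9 CPM against 15.4 to 29.5 CPM.

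Ldha, which turns pyruvate into lactate, was at 2664 to 3196 CPM in members and 940 to 1799 CPM in comparison cells, a median 1.97-fold difference. Gapdh had a log2 ratio of 1.18 and Pgk1 of 1.11, both in the middle of the pathway. Eno1, enolase, at a log2 ratio of 0.73, missed the limit of 1.5-fold in at least 1 tumour. Ldhb, the lactate dehydrogenase subunit that favours pyruvate, went the other way, with a log2 ratio of -0.70 (-0.85 to -0.54).

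Among the genes that move lactate and acid, Slc16a3, the lactate exporter MCT4, was at 197 to 269 CPM in members and 25.6 to 85.5 CPM in comparison cells. Bsg, the chaperone of lactate transporters, was at 1928 to 2326 CPM against 658 to 768 CPM. Slc16a1, the transporter MCT1, had a log2 ratio of 0.41 with overlapping levels. Car14, another membrane carbonic anhydrase, was lower in every tumour, at 111 to 145 CPM against 178 to 242 CPM. Of the 6 genes of this list with enough counts, Slc16a3 and Bsg were thus higher by the limit and Car14 lower, although Car14 no longer passed the limit after TMM scaling.

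Of 60 other HIF target genes 39 had enough counts, and 27 of them were higher in all tumours with none lower (median log2 ratio 1.70). Some of these reached the minimum only through the members, and of the 32 that reached it in the comparison cells alone 20 were higher, where 2.30% of all such genes were higher and 2.92% lower. Ero1l, an oxidase that forms disulphide bonds in the endoplasmic reticulum, was at 1623 to 2624 CPM in members (median 1979) and 135 to 219 CPM in comparison cells (median 172). Selenbp1, which oxidizes methanethiol, was at 194 to 359 CPM against 11.9 to 28.9 CPM, and Ankrd37, an ankyrin repeat protein, at 64.6 to 129 CPM against 2.95 to 10.1 CPM. The 3 genes showed gaps of 12-fold or more in the median tumour (12.4, 15.2 and 12.1).

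Genes for collagen modification belonged to the same group. P4ha2, a subunit of the collagen prolyl hydroxylase, was at 131 to 184 CPM against 16.5 to 27.1 CPM, and its partner isoform P4ha1 had a log2 ratio of 1.18. Plod2, a lysyl hydroxylase of collagen, had a log2 ratio of 1.65 and Loxl2, a lysyl oxidase, of 2.42. Gys1, glycogen synthase, was at 113 to 187 CPM against 17.3 to 25.9 CPM, and Gbe1, the branching enzyme, had a log2 ratio of 2.02. Higd1a, a mitochondrial protein induced by hypoxia, was at 1847 to 2301 CPM against 234 to 392 CPM, and Bnip3l, the paralogue of Bnip3, had a log2 ratio of 1.94. The metal-binding metallothioneins Mt1 and Mt2 had log2 ratios of 1.62 and 1.61. HIF targets that missed the limit included Mif, a cytokine (0.49), and Tfrc, the transferrin receptor (0.29).

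Of 7 HIF subunits and regulators with enough counts, Vhl, which marks HIF alpha for degradation, was the 1 gene past the limit, at 29.5 to 45.9 CPM in members and 11.9 to 18.9 CPM in comparison cells. Vhl reached the minimum only through the members, and of the 6 regulators that reached it in comparison cells alone 0 were past the limit. Hif1a, the alpha subunit, was at 143 to 204 CPM against 115 to 165 CPM, with a median log2 ratio of 0.33 and overlapping levels, and Arnt, its partner, had a ratio of 0.29. Egln2, a second prolyl hydroxylase, was lower, at 20.9 to 33.9 CPM against 36.5 to 52.0 CPM, without passing the limit in every tumour.

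Of 20 angiogenic factors 5 had enough counts and 4 of these were higher, Pgf and Adm having reached the minimum through the members only. Of the 3 that reached it in the comparison cells alone 2 were higher. Pgf, placental growth factor, was at 52.7 to 173 CPM in members (median 110.5) and at 1.46 to 3.93 CPM in comparison cells (median 2.47), where 6 to 30 UMIs per tumour were counted. Vegfa, the main vascular growth factor, was at 167 to 262 CPM (median 191) against 21.0 to 48.5 CPM (median 38.4), a median 5.43-fold difference. Adm, the vasodilator adrenomedullin, was at 60.7 to 97.3 CPM against 6.93 to 13.6 CPM. For each of these 3 genes the members of every tumour exceeded the comparison cells of every tumour. Pdgfa, a ligand for mesenchymal cells, had a log2 ratio of 0.95, and Vegfb had one of -0.48 with overlapping levels.

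**Figure D2:**
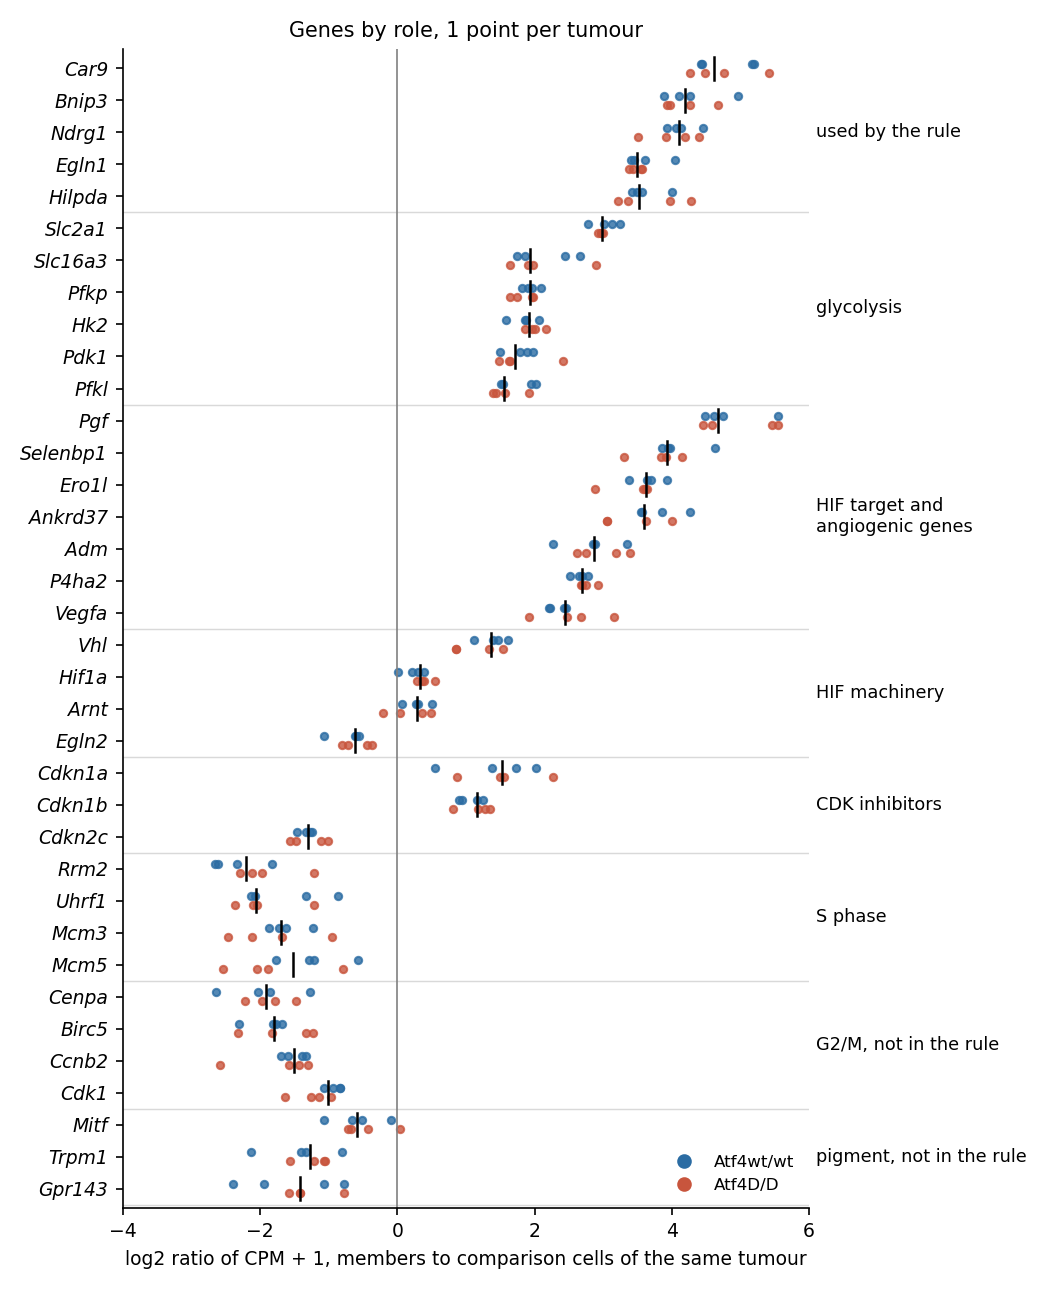
Log2 ratio of CPM + 1 in members to comparison cells of the same tumour for genes grouped by role, 1 point per tumour and a black line at the median. The hypoxia genes of the rule and the glycolysis and HIF target genes plotted lie right of 0 in all 8 tumours, and the S phase and G2/M genes plotted lie left of 0 in all 8.

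The 11393 melanoma cells with a low G were divided into 10 equal bins by H, and members lay in bins 9 and 10. Pgk1 was at a median of 1486 CPM in bin 1 and of 3950 CPM in bin 10, and Ldha at 1216 and 2971 CPM, and most of both gaps lay below bin 9. Pgf was at 0 to 11.7 CPM in each tumour over bins 1 to 5, at a median of 30.9 CPM in bin 8 and at 136 CPM in bin 10. Vegfa was at a median of 36.2 CPM in bin 1 and 211 CPM in bin 10, and Slc2a1 at 25.00 and 288 CPM. Cdkn1b was at 50.04 CPM in bin 1 and 116 CPM in bin 10. H2afz, a histone variant abundant in dividing cells, went from 1598 CPM down to 612 CPM and Mcm3 from 74.8 to 23.2 CPM, in cells that all had a low G. Each bin held at least 32 cells of every tumour.

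**Figure D3:**
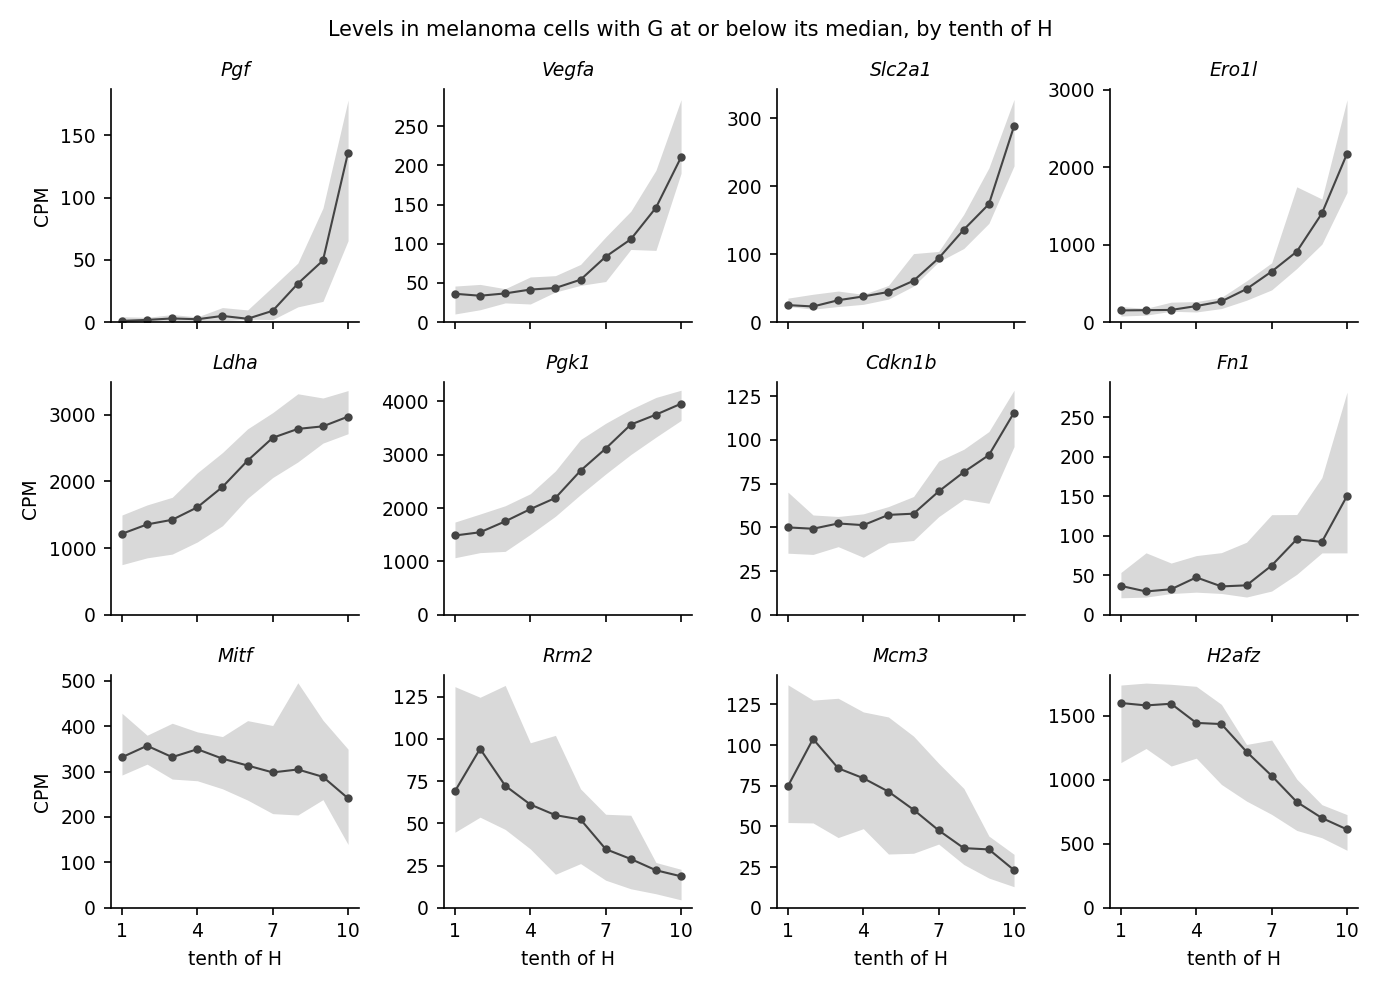
Level in CPM of 12 genes in melanoma cells with G at or below its median, in 10 equal bins of H (1 lowest, 10 highest). Lines are medians over 8 tumours and grey bands run from the lowest to the highest tumour. Pgk1 goes from 1486 to 3950 CPM while Mcm3 goes from 74.8 to 23.2 CPM.

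The non-cycling side of the label was checked on genes that did not enter G. Members and comparison cells met the same limit on G. Of 25 S phase genes with enough counts 11 were lower in all 8 tumours and none was higher (median log2 ratio -1.20). Some, such as Rrm2 and Uhrf1, reached the minimum through the comparison cells, and of the 13 that reached it in members alone 3 were lower (median -0.85). Rrm2, a subunit of ribonucleotide reductase, was at 6.25 to 23.5 CPM in members (median 19.5) and at 44.5 to 110 CPM in comparison cells (median 70.8). Mcm3, a subunit of the replicative helicase, was at 17.0 to 34.2 CPM against 54.4 to 119 CPM, and Uhrf1, which maintains DNA methylation after replication, at 9.57 to 26.7 CPM against 30.6 to 79.8 CPM. The levels of the 2 classes did not overlap for these 3 genes.

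Of 34 G2/M genes outside the rule 7 had enough counts in cells of low G, and 5 of these were lower in every tumour, namely Cenpa, a centromeric histone (4.79 to 15.4 CPM against 22.9 to 61.8 CPM), Birc5, Cdca3, Ccnb2 and Cdk1. The other two, Knstrn and Hmgb2, did not pass the limit. Cenpa, Cdca3 and Ccnb2 reached the minimum only through the comparison cells, and of the 3 genes that reached it in members alone, Cdk1, Birc5 and Hmgb2, 2 were lower. Pclaf, a PCNA-binding factor, had the steepest drop of all genes by the ranking used, from 26.5 to 68.9 CPM in comparison cells down to 6.25 to 15.6 CPM. Pclaf too reached the minimum only through the comparison cells. Stmn1, which destabilizes microtubules, and Nasp, a histone chaperone, had log2 ratios of -1.36 and -1.29. The 5 genes of G itself lay between -0.26 and -0.68, and 1 of them had enough counts. With cells picked on one set of UMIs and measured on the other, their median log2 ratios were -0.93 for Ube2c, -1.42 for Cenpf, -0.68 for Prc1, -0.91 for Top2a and -1.52 for Plk1. Of 18 genes of the list of CDK inhibitors, D cyclins and p53 targets 1 was higher and 1 lower (median log2 ratio 0.10). The lower gene, Cdkn2c, reached the minimum only through the comparison cells. Of the 17 genes that reached it in members alone 2 were higher and 0 lower (median 0.24). TMM scaling gave 2 higher and 1 lower. Cdkn1b (p27) was higher in all tumours, at 97.3 to 122 CPM against 40.2 to 56.7 CPM. Cdkn1a (p21) was at 290 to 504 CPM against 79.5 to 199 CPM, with a log2 ratio that fell to 0.54 in Atf4wt/wt tumour 3, short of the limit, while Cdkn2c (p18) was lower, at 9.69 to 14.5 CPM against 24.8 to 44.0 CPM.

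A second comparison asked what separated members from the 705 cells whose H was as high but whose G was above the median. Of 5679 genes, 3 (0.0528%) were higher in the members of every tumour and 189 (3.33%) were lower, the 5 mitotic genes of the rule among them. The 3 were Rras, a small GTPase, Isg20, an exonuclease, and Nucb2, the nesfatin precursor, named here after their values were seen, with median log2 ratios of 0.66, 1.12 and 1.10. All 26 G2/M genes outside the rule with enough counts and 34 of 35 S phase genes were lower. The cells set beside the members here were chosen for a high G, and most of these G2/M genes reached the minimum through them. In members alone 3 G2/M genes reached it, all lower, and 13 S phase genes, 12 of them lower, where 1.37% of all such genes were lower. Of the glycolysis genes 0 of 19 and of the other HIF targets 0 of 44 differed by the limit in either direction (median log2 ratios 0.10 and 0.06). The cells with a high G had more UMIs (median 11832), and 24 to 176 of them were summed per tumour.

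Of 19 pigment cell genes outside the rule 3 were lower in every tumour and 1 was higher (median log2 ratio -0.43), and of the 5 pigment genes of the rule none passed the limit. Of the 18 outside the rule that reached the minimum in members alone 2 were lower. Trpm1, a melanocytic cation channel, was at 55.7 to 180 CPM in members (median 146) and 248 to 403 CPM in comparison cells (median 319). Gpr143, a melanosomal receptor, was at 7.27 to 22.6 CPM against 32.1 to 50.7 CPM, and Slc24a5, a melanosomal exchanger, at 363 to 474 CPM against 664 to 864 CPM. Mitf, the regulator of pigment genes, was at 141 to 357 CPM against 297 to 403 CPM, and the levels overlapped. Of the rule genes Mlana had a log2 ratio of -0.66 and Tyrp1 of 0.08. Cdh2, N-cadherin, was the 1 higher gene of the list, at 36.3 to 67.6 CPM against 17.7 to 29.6 CPM.

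Of 11 invasion and mesenchymal genes 2 were higher in all tumours. Fn1, fibronectin, was at 80.5 to 239 CPM in members and 28.7 to 68.8 CPM in comparison cells. Lgals3, galectin-3, was at 1078 to 1432 CPM against 303 to 699 CPM. Fn1 is also a fibroblast gene, and the summed fibroblast markers were at a median of 19.95 CPM in members and 41.6 CPM in comparison cells. That sum was higher in members in 3 tumours, at 154 against 41.1 CPM in Atf4D/D tumour 1, 59.4 against 42.0 CPM in tumour 4 and 11.05 against 7.07 CPM in tumour 3, and its part in the Fn1 values was not tested. Vim, vimentin, had a log2 ratio of 0.55 without overlap of the levels.

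Of the 34 measured genes of the integrated stress response 2 were higher and 1 was lower (4 and 1 under TMM scaling), and their median log2 ratio was 0.06. The 2 higher genes, Ndrg1 and Ddit4, are a gene of the rule and a gene of the HIF target list, respectively, and both reached the minimum only through the members. Of the 31 genes of the list that reached it in comparison cells alone 0 were higher and 1 was lower. Ddit4, an inhibitor of mTORC1 signalling, was at 31.5 to 106 CPM against 13.8 to 24.9 CPM. Atf4 itself had a log2 ratio of -0.02 (-0.38 to 0.35), Ddit3, the factor CHOP, of 0.22 and Asns, asparagine synthetase, of -0.21, each with both signs among the tumours. Phgdh, which starts serine synthesis, was lower, at 193 to 322 CPM against 378 to 608 CPM. Of 20 genes of the unfolded protein response 1, the chaperone gene Dnajc3, was lower and none was higher (median -0.41).

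The 67 cytosolic ribosomal protein genes all stayed within the limit (median 0.12), and of 27 ribosome biogenesis genes 1 was lower, Srm, which encodes spermidine synthase, at 51.9 to 72.7 CPM against 103 to 145 CPM. Of 55 nuclear genes of the respiratory chain 1 was lower by the limit (median -0.24), Sdhb, a subunit of complex II, at 272 to 418 CPM against 521 to 665 CPM, and it no longer passed after TMM scaling. Ndufa4, of complex IV, had a log2 ratio of -0.75. The 13 mitochondrially encoded mRNAs had a median of -0.07, which turned to 0.07 under TMM scaling, and they split, with mt-Nd1 at -0.77 and mt-Co1 at 0.51. Of 26 sterol and fatty acid synthesis genes none passed the limit, at a median of -0.54, with Mvk, mevalonate kinase, at -1.12 and Fasn, fatty acid synthase, at -1.04. Of 9 lipid droplet and uptake genes 1 passed the limit, Fabp7, a fatty acid binding protein, which was lower (-1.13), where TMM scaling gave 2 higher and 1 lower. Fabp7 reached the minimum through the comparison cells, and of the 10 genes that reached it in members alone 0 were higher and 0 lower. Plin2, a coat protein of lipid droplets, was at 215 to 286 CPM against 115 to 149 CPM.

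Among 26 genes of oxidative stress defence none passed the limit in all tumours, although Hmox1, haem oxygenase 1, was at 218 to 521 CPM in members and 89.9 to 200 CPM in comparison cells. Of 6 interferon-stimulated genes none passed, and of 4 MHC class I genes none (1 was higher under TMM scaling), with H2-K1 at a log2 ratio of 1.64 and B2m, its light chain, at -0.42. Of 16 dissociation and immediate early genes 4 were higher, among them Ier3 at 219 to 438 CPM against 50.3 to 84.0 CPM, and 1, the heat shock gene Hsph1, was lower (4 and 0 under TMM scaling). Fosl2 reached the minimum only through the members, and of the 15 genes that reached it in comparison cells alone 3 were higher. The median of that list was 0.03, and the part of tissue dissociation in its higher genes was not tested.

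**Figure D4:**
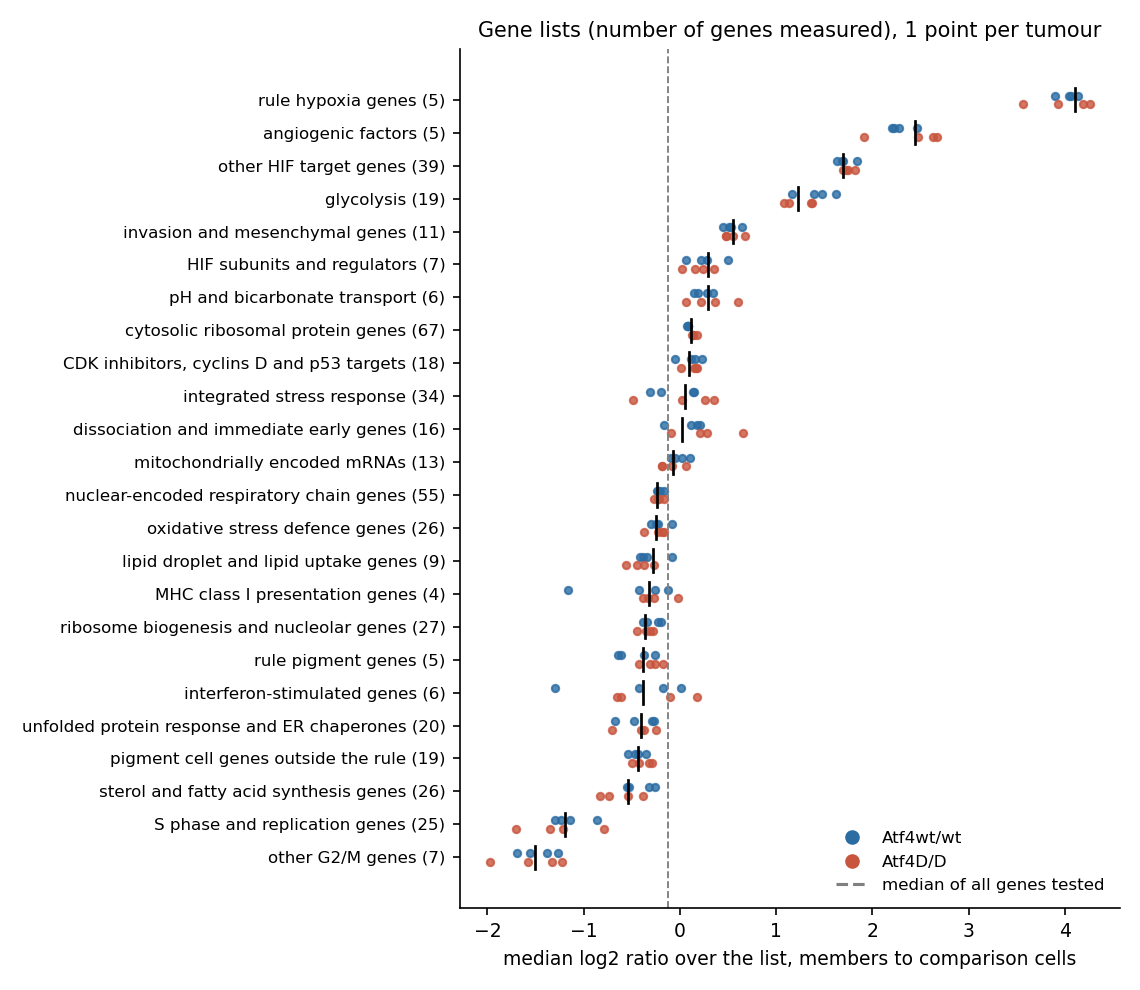
Median log2 ratio of members to comparison cells over each gene list, 1 point per tumour, black line at the median, with the number of genes measured in brackets. The dashed line is the median of all 5643 genes; the HIF target and glycolysis lists sit at 1.70 and 1.23 and the S phase and G2/M lists at -1.20 and -1.51.

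Host genotype was then compared within the members by edgeR's quasi-likelihood test on the summed counts of the 8 tumours, a contrast that the rule did not use. Atf4 was at 256, 470, 367 and 420 TMM-scaled CPM in members of Atf4wt/wt tumours 1 to 4 and at 338, 364, 520 and 427 CPM in Atf4D/D tumours 1 to 4. The groups overlapped and did not differ beyond their spread (log2 difference 0.14, SE 0.14, adjusted p 0.857). The melanoma cells were not the target of the deletion, so Atf4 does not check the host labels. Of 8904 genes tested 4 (0.0449%) passed an adjusted p of 0.05, 3 higher and 1 lower in Atf4D/D, and 666 had an unadjusted p under 0.05. DESeq2 called 0 genes higher and 3 lower.

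Of these, 3 are described here. Gstp1, a glutathione transferase next to its copy Gstp2, was at 38.3, 79.1, 60.4 and 80.4 CPM against 143, 244, 87.7 and 139 CPM, without overlap (1.25, SE 0.23, adjusted p 0.0471). Ftl1-ps1, a copy of the ferritin light chain gene, was at 90.1, 102, 103 and 85.5 CPM against 123, 171, 146 and 148 CPM (0.60, SE 0.11, adjusted p 0.0471), while Ftl1, the parent gene, had a log2 difference of -0.11. Gm42418, a noncoding gene whose annotation overlaps a ribosomal RNA gene (chr17:39846958-39848788), was at 1380, 2233, 2241 and 860 CPM against 878, 977, 784 and 733 CPM (-1.01, SE 0.18, adjusted p 0.0471). Whether reads were shared with a copy or an overlapping gene was not tested, and the annotation holds no gene that overlaps Gstp1. None of the 3 calls held with RLE normalization or with sex as a covariate, and DESeq2 gave no adjusted p for Gstp1 and Ftl1-ps1 and one of 0.0895 for Gm42418. Gstp1 was highest in Atf4D/D tumour 2, and the number of calls was 0 to 15 when 1 tumour was left out. Groups without overlap were found for 410 of the 8904 genes (4.60%).

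No HIF target gene passed the test between genotypes in the members, where 4 of all 8904 genes (0.0449%) passed. With so few calls, 0 calls in a list say little about that list. Members of both genotypes also met the same limit on H. Vegfa, Pgf and Slc2a1 were higher in the top bin of H than in the lowest. The test within members therefore cannot show a genotype difference in such genes that lies in H itself. Of 49 other HIF target genes tested 0 passed, 15 had an unadjusted p under 0.05, where 666 of all 8904 genes did, and 25 were higher in Atf4D/D (median log2 difference 0.02). Of 24 glycolysis genes 0 passed. Vegfa was at 169, 221, 184 and 173 CPM in Atf4wt/wt and 199, 188, 252 and 240 CPM in Atf4D/D tumours (log2 difference 0.22, SE 0.11, adjusted p 0.687). Hif1a had a log2 difference of -0.04 (SE 0.10, adjusted p 0.967). Car9 was used to pick the members, so its level between the genotypes is not read as a result. Pgf was at 131, 92.8, 180 and 116 CPM against 126, 53.3, 105 and 74.5 CPM, which overlap (-0.48, SE 0.19, adjusted p 0.555). Of 35 genes of the integrated stress response 0 passed, and 9 had an unadjusted p under 0.05.

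**Figure D5:**
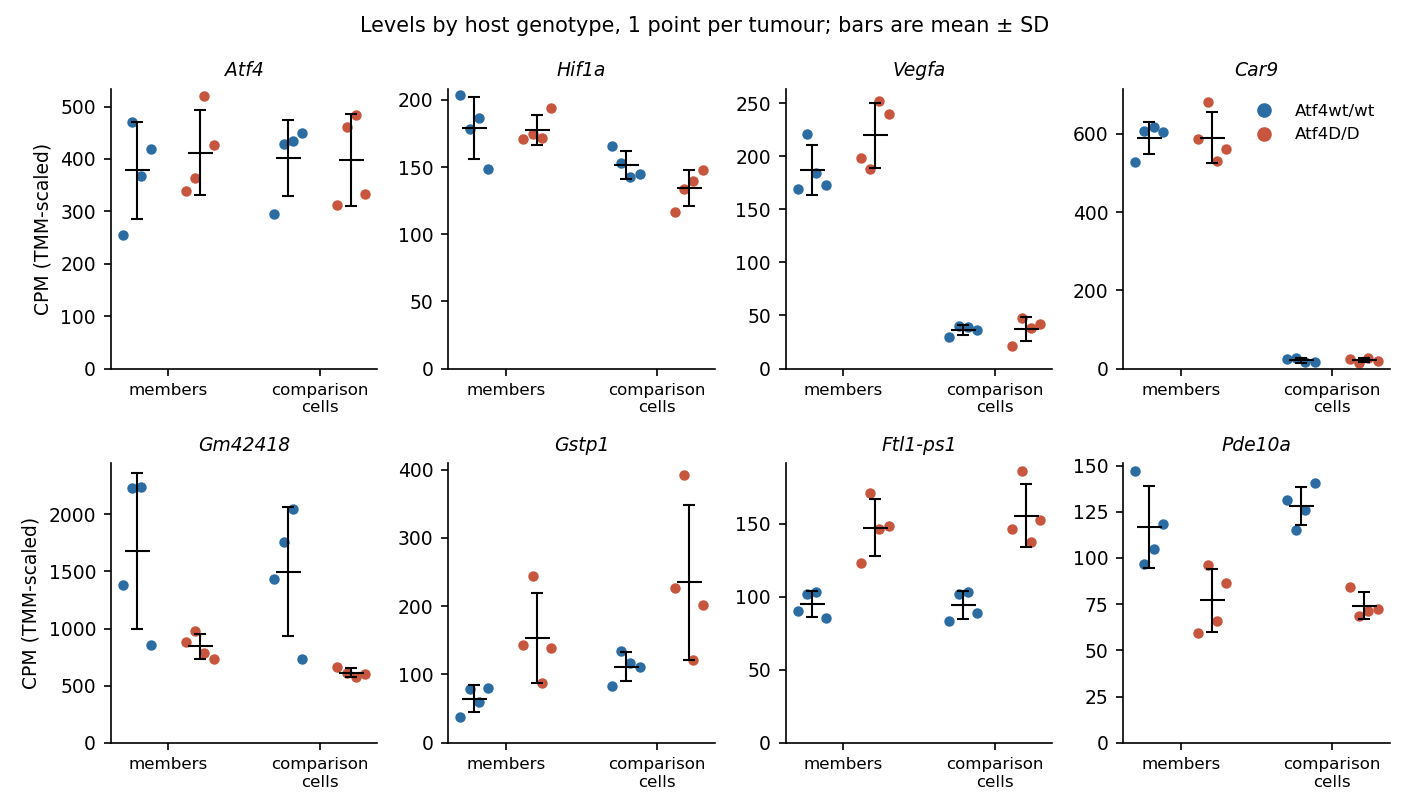
TMM-scaled CPM of 8 genes in members and in comparison cells by host genotype, 1 point per tumour with mean ± SD (n = 4). Atf4, Hif1a and Vegfa overlap between the genotypes in members. Gstp1, Ftl1-ps1 and Pde10a do not, as was the case for 410 of 8904 genes (4.60%), and Pde10a did not pass the test in members. Car9 was used to pick the members.

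The same test in the comparison cells called 7 of 10764 genes (0.0650%), and 2 genes, Ftl1-ps1 and Gm42418, were called in both classes, which is 2 of the 4 calls in members and 2 of the 7 in comparison cells. Pde10a, a phosphodiesterase, was at 131, 115, 126 and 140 CPM in Atf4wt/wt and 84.6, 68.4, 71.5 and 72.4 CPM in Atf4D/D comparison cells (-0.80, SE 0.09, adjusted p 0.00442). In members its difference had the same sign without passing (-0.61, SE 0.15, adjusted p 0.217). Eno1 was at 486, 472, 435 and 439 CPM against 698, 624, 573 and 697 CPM in comparison cells (0.50, SE 0.08, adjusted p 0.0445) and its copy Eno1b was called with it, while in members the difference of Eno1 was 0.25 (adjusted p 0.573). The Eno1 call was lost in 12 alternatives and kept in 5, and that of Pde10a was lost in 1 and kept in 16. Whether a genotype difference itself differed between members and comparison cells was tested by the interaction of genotype and class, with a term for each tumour. By edgeR 0 of 10174 genes passed, with 500 at an unadjusted p under 0.05, and by DESeq2 0 passed, with 146 at an unadjusted p under 0.05. Of the 3 genes with the smallest p in each direction, the interaction was 0.95 for Timp1, a protease inhibitor, 1.03 for Klhl7 and 0.75 for Rcn3, and -0.38 for Tm4sf1, -0.93 for Tnfaip8 and -0.53 for Ccnd1, which encodes cyclin D1, each at an adjusted p of 0.706. Timp1, which fibroblasts also express, was at 39.5, 21.0, 19.9 and 32.9 CPM in members of Atf4D/D tumours 1 to 4, where the summed fibroblast markers were at 154, 24.7, 11.05 and 59.4 CPM. The 2 fibroblast markers with enough counts for the test in members did not pass it, both had an unadjusted p under 0.05 and both were higher in Atf4D/D (median log2 difference 1.47). Their part in the Timp1 values was not tested. Ccnd1 was at 127, 144, 157 and 269 CPM in Atf4wt/wt and 83.5, 82.4, 118 and 123 CPM in Atf4D/D members, without overlap, as was the case for 410 of the 8904 genes (4.60%).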

How the data were processed

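Cells were profiled with droplet-based single-cell RNA sequencing. Per the labels and the methods, the authors aligned reads to GRCm38 with Cell Ranger (3.1.0 in the submitters' processing notes, which also list Seurat 3.2.1) and deposited the UMI counts of each gene in each barcode as raw whole numbers, without normalization. The labels and methods differ on kit version and age, and which instrument ran which library is not given in the sources used here. No doublets were removed. The members, gene lists and genes named were chosen with earlier results of these data known.

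Counts of members and of comparison cells were summed per tumour, the replicate. Genotypes were compared with edgeR 4.0.16 (filterByExpr, TMM, quasi-likelihood test, Benjamini-Hochberg adjustment over all genes tested), and shares with an exact permutation test. The edgeR step was also run on simulated counts with the same dispersion for every gene, which does not bear on how stable the calls were. Members against other cells is a description without a test. Alternatives used DESeq2 1.42.0, other limits, scalings and left-out tumours. Other tools were R 4.3.3, limma 3.58.1, matplotlib 3.10.9, scipy 1.17.1, pandas 2.3.3, numpy 2.4.6 and python 3.11.15.

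Named were the 15 rule genes, up to 6 genes per list with the largest ratio, the 15 highest and 15 lowest by the tumour closest to 1, up to 10 genes each way by genotype (or the 3 with the smallest p where none passed), and Atf4, Vegfa and Hif1a. Other names (such as Gapdh, Pgk1, Ldha, Eno1, Ldhb, Plod2, Loxl2, Gbe1, Mt1, Sox10 and Gpnmb) were chosen after their values were seen. A count of 0 was given the limit of 3 counts, over all members together. One gene called by genotype in members is not reported here.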

Additional observations from a re-analysis of the deposited data

Results flagged for a closer look

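Within each genotype a tumour was looked at again when its gap to the nearest of the others took up more of the range of the 4 tumours than Dixon's limit allows, which chance passes in about 5% of groups. Of 32 groups of 4 tested, 3 passed, and the 32 include hypoxia genes that the rule used to pick the cells. Car9 is such a gene, so nothing is concluded from its pass. In members it was at 527.9 TMM-scaled CPM in Atf4wt/wt tumour 1, with the other tumours at 603.4 to 616.8 CPM. Ero1l in members was at 2722.7 CPM in Atf4wt/wt tumour 4, the tumour with the fewest members (52), with the others at 2003.8 to 2125.9 CPM. Hif1a in members was at 194.1 CPM in Atf4D/D tumour 4, with the others at 170.7 to 174.5 CPM.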

How the results depend on the processing

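The share of members kept its direction and missed the threshold under every alternative run, with a difference of 2.25 to 5.13 percentage points without 1 tumour. The calls by genotype were unstable. In members the 4 calls became 0 with the top 20% of H, at least 6000 UMIs, RLE normalization or sex as a covariate, 7 with thinned cells, 81 without a filter on low counts, 11 with the replicate block, 3 by DESeq2 (0 higher and 3 lower, against 3 higher and 1 lower), and 0 to 15 without 1 tumour (0 without Atf4wt/wt tumour 1, 2 or 3, and 15 without Atf4D/D tumour 3). In comparison cells the 7 became 2 with at least 6000 UMIs, 4 with up to 15% mitochondrial UMIs, 0 with thinned cells, 18 by DESeq2, 85 without a filter, 1 with the replicate block or with sex, and 1 to 10 without 1 tumour. For the interaction, 0 became 19 without a filter and 0 to 3 without 1 tumour, 3 being without Atf4D/D tumour 2. The difference of Atf4, not past the threshold, was -0.028 without Atf4wt/wt tumour 1 and reached 0.29 without tumour 2. That of Hif1a was 0.034 with the top 5% of H, 0.027 without Atf4wt/wt tumour 1 and as low as -0.088 without tumour 4. The cause was not tested. Same-numbered tumours did not deviate together (correlation -0.08 to 0.01 in members and -0.21 to 0.02 in comparison cells). The numbers were not taken as pairs in the main test, although 4 correlations per class cannot exclude a shared origin. Against the 139 lower genes, 75 were lower with the top 20% of H, 79 with TMM-scaled CPM, 90 with cells picked and measured on separate UMIs and 259 with all other melanoma cells as the comparison, while the count of higher genes stayed within 1.5 times of 187. The median log2 ratio of the G2/M list moved from -1.51 to -3.21 and that of the S phase list from -1.20 to -1.97 with all other melanoma cells as the comparison. Under the same alternative that of the other HIF targets fell from 1.70 to 1.22 and that of glycolysis from 1.23 to 0.97. The G2/M median was -1.05 with a minimum of 5 CPM and -1.77 with the top 5% of H. With the minimum in members alone, an alternative added after seeing the data, the medians were -1.01 and -0.85. The 52 members of Atf4wt/wt tumour 4, with 412756 UMIs, limit the depth.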

Other observations

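Several of the genes with the largest ratios in the members stood on none of the lists. Of those that follow, Espn, Pkp2, Cxxc5, Kbtbd11 and Aire reached the minimum of 20 CPM only through the members, and with that minimum set in the comparison cells alone 131 genes (2.30%) were higher in place of 187. Espn, which encodes the actin-bundling protein espin, was at 253 to 345 CPM in members and 5.65 to 15.99 CPM in comparison cells, a median 24.5-fold difference. Pkp2, the desmosomal protein plakophilin 2, was at 56.7 to 76.7 CPM against 5.03 to 8.73 CPM, and Cxxc5, a CXXC zinc finger protein, at 33.1 to 64.2 CPM against 3.37 to 6.55 CPM. Kbtbd11, of the kelch repeat family, was at 38.8 to 63.8 CPM against 2.70 to 8.47 CPM, and Sap30, a subunit of a histone deacetylase complex, at 148 to 208 CPM against 19.4 to 29.2 CPM. The levels of members and comparison cells did not overlap in any of these genes. Aire, known as the regulator of self-antigens in the thymus, was at 39.1 to 67.8 CPM against 4.73 to 12.2 CPM, and it lies on chromosome 10 with 19938 bases and no other annotated gene between it and Pfkl, the glycolytic gene described above, on the same strand.

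On the lower side, Bdh1, a mitochondrial enzyme of ketone body metabolism, was at 8.92 to 16.6 CPM in members and 30.2 to 57.6 CPM in comparison cells. Bdh1 reached the minimum of 20 CPM only through the comparison cells. With that minimum set in members alone 98 genes (1.79%) were lower in place of 139. Abhd8, an alpha/beta hydrolase, was at 14.2 to 21.2 CPM against 32.6 to 55.3 CPM, and Bmyc, a relative of Myc, at 36.3 to 60.5 CPM against 73.2 to 130.4 CPM. The levels of Abhd8 in members lay on both sides of the minimum.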
